A study of Mus musculus with 8 samples.

Results

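The 77 mitochondrial ribosomal protein genes were followed across 0, 2 and 10 µM RHPS4 in RNA-Seq of wild type mouse embryonic fibroblast (MEF) cells. Members were taken by symbol, as every gene named Mrpl or Mrps followed by a number, which gave 48 large subunit (Mrpl) and 29 small subunit (Mrps) symbols among the 24460 genes counted, with no pseudogene symbol among them. RHPS4 is a small molecule that binds G-quadruplexes, four-stranded structures of guanine-rich DNA, and the comparison asks how mRNAs for a ribosome that is built partly from mitochondrial DNA (mtDNA) products stood in cells exposed to a low and a high dose. Untreated cells (0 µM) gave 3 libraries, the 2 µM dose another 3 and the 10 µM dose 2, all from subconfluent cultures of one cell type collected by trypsinization. The labels give 16 or 24 h for exposures in general and do not say which was used here, and they do not say whether the libraries of a dose came from separate cultures, so the p values measure the spread between these libraries, which may be technical.

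Mitochondria carry their own ribosome, which translates the mRNAs encoded by mtDNA. Its rRNAs are mtDNA products, whereas all of its proteins are encoded in the nucleus, made in the cytosol and imported. The large subunit joins amino acids at the peptidyl transferase centre and releases the chain through an exit tunnel, and the small subunit reads the mRNA at the decoding centre. Some of the proteins descend from bacterial ribosomal proteins and others are found in mitochondria only. Because a subunit is assembled from 1 copy each of most of its proteins and an rRNA, the relative levels of the mRNAs are of interest as well as their direction.

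Symbols do not follow the structure in every case. Mrps30 and Mrps18a encode proteins of the large subunit despite their names, and Mrps36 encodes a protein now placed in the 2-oxoglutarate dehydrogenase complex. By homology, 30 of the large subunit symbols had a bacterial counterpart and 18 were specific to mitochondria, and of the small subunit symbols 18 had a bacterial counterpart and 10 were specific to mitochondria, with Mrps36 left out. The 77 genes lay on 17 chromosomes in GENCODE's annotation of GRCm38 (mm10), with the most, 10, on chromosome 11. All 77 passed the filter on low counts, among 14296 genes tested, and the fewest counts of any member in any library was 85, for Mrps36 in the first 0 µM library.

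The libraries held between 10455965 and 26688121 counts. Levels are given as CPM, counts over the library's total scaled by edgeR's TMM factors. Over the total without these factors, a level of 3 counts was between 0.112 and 0.287 CPM. This is a floor for counting error alone because PCR duplicates were not told apart. The summed level of the 10 fibroblast markers was 14140 to 14590 CPM in untreated cells, 12920 to 13130 CPM at the low dose and 12510 to 12840 CPM at the high dose, and its part in the results was not tested, whereas no list of epithelial, endothelial, blood, muscle or pluripotent cell markers summed to more than 9.27 CPM in any library and the globin genes Hba-a1 and Hbb-bs were at 0 throughout. The mtDNA features took 13.2% to 14.4% of counts at 0 µM, 7.4% to 8.26% at 2 µM and 5.33% to 6.32% at 10 µM. In bulk RNA, fewer cells with a transcript and less transcript per cell cannot be told apart.

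In untreated cells the members covered a wide range of levels. On the TPM scale, which divides by the merged exon length of each gene, the large subunit genes ran from 8.44 to 437 with a median of 58.6, and the small subunit genes from 17 to 194 with a median of 53.2. Both medians lay above the median of 19.5 TPM of the 14178 tested nuclear genes with a length and below the 1370 TPM of the 82 tested cytosolic ribosomal protein genes. In the large subunit the highest levels were those of Mrpl33 at 437 ± 22.7 TPM (SD, n = 3), Mrpl42 at 281 ± 63.9 and Mrpl52 at 250 ± 17.1. Mrpl42 and Mrpl52 differed by less than their spread. The lowest were Mrpl48, a protein of the central protuberance, at 8.44 ± 0.396 and Mrpl17, which sits near the exit of the tunnel, at 18.6 ± 0.795. In the small subunit Mrps22 (194 ± 12.1), Mrps6 (194 ± 18.3) and Mrps21 (178 ± 8.28) were highest. Their ranges of mean ± SD overlapped. Mrps14 (17 ± 1.33) and Mrps25 (18.3 ± 1.57) were lowest. The value for Mrps6 depends on how reads of Slc5a3 were assigned, since the genes overlap on the same strand.

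The regions around the transcription start sites were examined because RHPS4 binds G-quadruplexes and because a few factors (NRF1, the ETS factor GABPA and YY1) are known to act at nuclear genes for mitochondrial proteins. RefSeq windows of GRCm38.p6, from 250 bases before to 50 bases after the start, were found for 68 of the 77 members (42 large and 26 small). The ETS letters CCGGAAG stood on either strand in 24 of the 68 windows (35.3%), against 11.8% of all 18097 windows and 17.1% of the 11206 windows of tested genes. The NRF1 letters GCATGCGC stood in 8 (11.8%, against 5.20% of tested genes) and the YY1 letters ATGGCGG in 13 (19.1%, against 7.85%). Matches of different motifs were counted separately even where they overlapped. A G-quadruplex pattern, 4 runs of at least 3 G with 1 to 7 bases between them on either strand, was present in 11 windows (16.2%), against 26.8% of tested genes, and was found in 4 of 42 large and 7 of 26 small subunit windows. The median GC content was 58.2% in the members' windows and 56.3% in all windows. A match is a description of the letters only.

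The windows of Mrpl18 and Mrps6 are shown because these were the members with the smallest p at 10 µM in each subunit, and that of Mrps12 because it encodes the protein at the decoding centre. Capitals mark the ETS letters in Mrpl18 (chr17:12916042-12916341, minus strand) and Mrps12 (chr7:28741772-28742071, minus strand) and a stretch with the G-quadruplex pattern in Mrps6 (chr16:92058086-92058385, plus strand).
Mrpl18: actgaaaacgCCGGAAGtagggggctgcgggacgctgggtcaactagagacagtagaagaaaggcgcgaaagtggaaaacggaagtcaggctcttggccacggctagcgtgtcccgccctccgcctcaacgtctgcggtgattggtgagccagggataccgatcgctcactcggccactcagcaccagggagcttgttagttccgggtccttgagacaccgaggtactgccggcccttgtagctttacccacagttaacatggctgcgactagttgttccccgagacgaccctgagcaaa
Mrps6: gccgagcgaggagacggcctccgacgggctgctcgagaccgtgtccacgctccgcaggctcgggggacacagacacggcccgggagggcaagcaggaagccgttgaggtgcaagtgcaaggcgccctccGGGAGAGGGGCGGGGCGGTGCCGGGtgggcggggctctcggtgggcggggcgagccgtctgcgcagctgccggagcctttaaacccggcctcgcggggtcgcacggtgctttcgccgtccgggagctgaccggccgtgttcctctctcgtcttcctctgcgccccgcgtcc
Mrps12: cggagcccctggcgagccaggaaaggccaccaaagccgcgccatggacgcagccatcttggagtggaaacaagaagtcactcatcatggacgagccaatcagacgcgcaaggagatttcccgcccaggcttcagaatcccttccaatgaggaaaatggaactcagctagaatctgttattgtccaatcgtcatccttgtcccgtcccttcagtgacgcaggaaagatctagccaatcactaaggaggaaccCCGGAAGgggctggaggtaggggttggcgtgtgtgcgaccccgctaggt
Members with and without a motif moved by similar amounts. At 10 against 0 µM the median log2 fold change was 0.03 in the 11 members with the G-quadruplex pattern and 0.03 in those without it, and at 2 against 0 µM it was 0.22 and 0.18. For the ETS letters the medians at 2 against 0 µM were 0.18 with and 0.19 without. Over all tested genes with a window the medians of that comparison were 0.052 with and -0.025 without the ETS letters. For the G-quadruplex pattern they were -0.039 with and 0.003 without. The part of these motifs was not tested.

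The members moved together from library to library. The median deviation of the large subunit genes from their own means over the 8 libraries, in log2 CPM, was 0.10, -0.18 and -0.15 in the 3 untreated libraries, 0.16, 0.09 and 0.06 after 2 µM, and -0.08 and 0.05 after 10 µM. For the small subunit genes it was 0.12, -0.22 and -0.15 without RHPS4, 0.19, 0.08 and 0.09 after 2 µM, and -0.16 and 0.06 after 10 µM. The first 0 µM library therefore stood with the 2 µM libraries and apart from the other untreated ones, and it held the highest of the 3 untreated values in 74 of the 77 members. At 10 µM the second library was higher than the first in 60 members. The shares of all tested genes for these counts of 74 and 60 are not given here. Summed over the 77 genes the level was 3228, 2612 and 2710 CPM at 0 µM, 3378, 3192 and 3176 CPM at 2 µM, and 2760 and 3068 CPM at 10 µM.

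Cytosolic ribosomal protein genes followed the same order of libraries, with median deviations of 0.14, -0.17 and -0.15 without RHPS4, 0.14, 0.05 and 0.02 after 2 µM, and -0.09 and 0.06 after 10 µM. The median over all tested nuclear genes stayed between -0.01 and 0.02 in every library. Total counts moved with these deviations. Within each dose the library with the fewest total counts (10455965 at 0 µM, 11391061 at 2 µM and 12643261 at 10 µM) had the highest summed level of members. The part of sequencing depth in the result was not tested.

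At 2 µM nearly every member had a higher mean than at 0 µM, by a small amount. The log2 fold change was above 0 in 76 of 77 members, against 48.2% of all tested genes, and ran from -0.04 (Mrps6) to 0.43 (Mrpl41). The median was 0.17 for the large and 0.19 for the small subunit, and -0.01 over all tested genes. Without the first 0 µM library the medians were 0.27 and 0.29, and without the second one the small subunit median was 0.125. None of the members was a differentially expressed gene (DEG, taken as a gene that changed more than 1.5-fold with an adjusted p under 0.01), as was 0.497% of tested genes, with edgeR and with DESeq2 (background 0.929% in the latter). At an adjusted p under 0.05 edgeR called 1 member, Mrpl3, higher (background 1.51%) and 0 lower (background 2.65%). At an unadjusted p under 0.05 there were 28 higher (background 10.1%) and 0 lower members (background 11.2%). DESeq2 called 2 higher (background 1.91%) and 0 lower (background 3.19%).

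All 3 values at 2 µM exceeded all 3 at 0 µM in 21 members (27.3%, background 12.7%), and the reverse held in 0 members (background 12.9%). Without the first 0 µM library, an alternative chosen after the data were seen, the 2 µM values exceeded the remaining 0 µM values in 65 of 77 members (background 25.8%), and edgeR called 31 members higher (background 7.63%). The count of called members thus rests on that library, whereas leaving out each other library in turn gave 0 or 1. Gene length moved with the result: among tested nuclear genes with 478 to 1363 bases of merged exons, the shorter range of the members' lengths, the median was 0.09 and 64.3% were above 0. Members up to that length had a median of 0.20 and longer members one of 0.18.

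Mrpl3 encodes a protein next to the peptidyl transferase centre. Its level was 50.4, 45.4 and 46.7 CPM at 0 µM, 64.8, 63.7 and 54.8 CPM at 2 µM, and 49.6 and 52.3 CPM at 10 µM. The groups at 0 and 2 µM did not overlap, and the values at 10 µM overlapped the untreated ones. Mrpl3 rose at 2 µM by a log2 fold change of 0.36 ± 0.0834 (SE, adjusted p = 0.0374), a call lost without the second or the third 0 µM library or the first or the second 2 µM library (adjusted p from 0.144 to 0.169).

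The next members by p at 2 µM did not pass the threshold in this fit. Mrpl20, whose bacterial counterpart is needed for subunit assembly, stood at 73.5, 57.1 and 59.9 CPM at 0 µM and 83.0, 79.8 and 81.4 CPM at 2 µM (log2 fold change 0.37 ± 0.0937, adjusted p = 0.0526). It was the other member called by DESeq2 (adjusted p = 0.0278), and it passed with RLE factors (0.0499), nuclear-only TMM (0.0451), no filter (0.0449), at least 10 counts in every library (0.0435) and total counts (0.0153) too. Mrpl41, a large subunit protein specific to mitochondria, stood at 19, 14 and 14.3 CPM and then 21.1, 20.2 and 21 CPM (0.43 ± 0.12, adjusted p = 0.0717). In both the 2 µM libraries were tightly grouped, and the first untreated library lay between the groups. Mrpl22, which lines the exit tunnel, stood at 32.1, 23.9 and 25.6 CPM and then 35.5, 34.3 and 34.7 CPM (0.37 ± 0.106, adjusted p = 0.074), the same arrangement.

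Members grouped by place in the ribosome had positive medians at 2 µM throughout. The median log2 fold change was 0.21 for the 3 genes of the factor-binding stalk (Mrpl10, Mrpl11, Mrpl12), 0.27 for the 4 around the peptidyl transferase centre, 0.16 for the 6 of the exit tunnel, 0.14 for the 8 of the central protuberance, 0.30 for the 3 of the decoding centre and mRNA channel, and 0.24 for the 4 of the small subunit head. The 48 genes with a bacterial counterpart had a median of 0.22 and the 28 specific to mitochondria one of 0.16. These medians were not tested against each other. Standard errors of single members ran from 0.0728 to 0.244 on the same scale. Mrpl12, which encodes the protein at the tip of the stalk that binds translation factors, had the largest error, with 67.7, 31.4 and 49.2 CPM at 0 µM, 60.8, 52.7 and 72.3 CPM at 2 µM, and 34.4 and 56.2 CPM at 10 µM. Its values overlapped between all 3 doses.

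At 10 µM the members were close to the untreated level on balance and spread in both directions. The log2 fold change against 0 µM was above 0 in 53 members (68.8%, against 52.1% of all tested genes) and below 0 in 24. Its median was 0.07 for the large and 0.03 for the small subunit, against 0.02 over all tested genes. The sign of these medians depended on single libraries, with -0.02 and -0.10 without the second 10 µM library and 0.10 and 0.14 without the first, and the small subunit median was -0.012 with DESeq2 and -0.015 with no filter. Promoter GC content moved with this comparison over all genes, with medians of -0.03 above and 0.07 at or below the members' median GC content, and 0.03 and 0.04 in the members themselves. None was a DEG with edgeR (background 3.09%) or with DESeq2 (background 3.99%). At an adjusted p under 0.05 edgeR called 2 members lower, Mrps6 and Mrpl18 (2.6%, background 7.11%), and 0 higher (background 6.81%). Without the first 0 µM library 8 members were called, 6 higher (background 7.64%) and 2 lower (background 11.7%). At an unadjusted p under 0.05 there were 6 higher (background 14.8%) and 3 lower members (background 14.6%). DESeq2 called the same counts of 0 higher (background 4.56%) and 2 lower (background 9.43%). Values did not overlap between the doses in 7 members that were higher (9.09%, background 22.9%) and 6 that were lower (7.79%, background 20%). The shares called and the shares without overlap were below those of all tested genes.

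Mrps6 encodes a protein of the small subunit platform. Its level was 56.2, 53.1 and 61.1 CPM at 0 µM, 54.3, 51.4 and 60.1 CPM at 2 µM, and 39.4 and 41.4 CPM at 10 µM. Both 10 µM values lay below every other library, and the values at 0 and 2 µM overlapped. Mrps6 fell, with a log2 fold change of -0.49 ± 0.0954 at 10 against 0 µM (adjusted p = 0.00681), while at 2 against 0 µM the change was -0.04 ± 0.0837 (adjusted p = 0.832). The gene (chr16:92058270-92112227, plus strand) overlaps Slc5a3, which encodes an inositol transporter and lies on the same strand. Slc5a3 was counted at a higher level, 749 to 900 CPM at 0 µM and 508 and 532 CPM at 10 µM, and fell, with a log2 fold change of -0.69 ± 0.115 (adjusted p = 0.00296), so reads of these genes may be shared and the value for Mrps6 is uncertain.

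Mrpl18 encodes a central protuberance protein whose bacterial counterpart binds the small rRNA of the large subunit. Its level was 112, 89.9 and 93.6 CPM at 0 µM, 132, 116 and 116 CPM at 2 µM, and 74.4 and 76.9 CPM at 10 µM. The 3 doses did not overlap at all, with 2 µM highest and 10 µM lowest. Mrpl18 fell at 10 against 0 µM, with a log2 fold change of -0.37 ± 0.103 (adjusted p = 0.0346), and its change at 2 against 0 µM, 0.30 ± 0.0911, missed the threshold (adjusted p = 0.0881). The fall against 0 µM was not called without either 10 µM library (adjusted p = 0.108 and 0.117), without the third 0 µM library (0.0606) or without the second 2 µM library (0.0584), nor with total counts as the only scaling (-0.16, adjusted p = 0.242). The gene (chr17:12911349-12916345, minus strand) overlaps Tcp1, a subunit of the cytosolic chaperonin, on the other strand. Tcp1 was at 670 to 777 CPM at 0 µM and 629 and 651 CPM at 10 µM (-0.15 ± 0.0866, adjusted p = 0.267). Its change was 0.22 at 2 against 0 µM (adjusted p = 0.137) and -0.37 at 10 against 2 µM (adjusted p = 0.0113), the same directions as Mrpl18. The libraries were strand-specific, but the strand setting of the counting is not given in the sources used here, so reads of these genes may not have been told apart.

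Other members with small p at 10 µM did not pass. Mrpl50, a large subunit protein specific to mitochondria, stood at 37.6, 33.2 and 32.6 CPM at 0 µM and 28.8 and 29.4 CPM at 10 µM (-0.24 ± 0.0925, adjusted p = 0.114). Mrps2 stood at 23.8, 22.6 and 23.3 CPM and then 21.2 and 19.4 CPM (-0.19 ± 0.0895, adjusted p = 0.188). In both the 10 µM values were below all untreated ones. On the other side, Mrpl24, at the exit tunnel, stood at 47.4, 44.3 and 43.3 CPM and then 48.9 and 64.0 CPM (0.33 ± 0.107, adjusted p = 0.0644). Mrpl13 stood at 98.7, 79.3 and 82.8 CPM and then 102 and 118 CPM (0.35 ± 0.115, adjusted p = 0.0697). In both the second 10 µM library was the higher one. Mrps14, in the small subunit head, had a change of 0.33 ± 0.122 (adjusted p = 0.097), and Mrps34, a small subunit protein specific to mitochondria, one of 0.47 ± 0.173 (adjusted p = 0.1), with 17.7, 11.4 and 14.4 CPM at 0 µM and 16.9 and 22.6 CPM at 10 µM that overlapped.

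**Figure D1:**
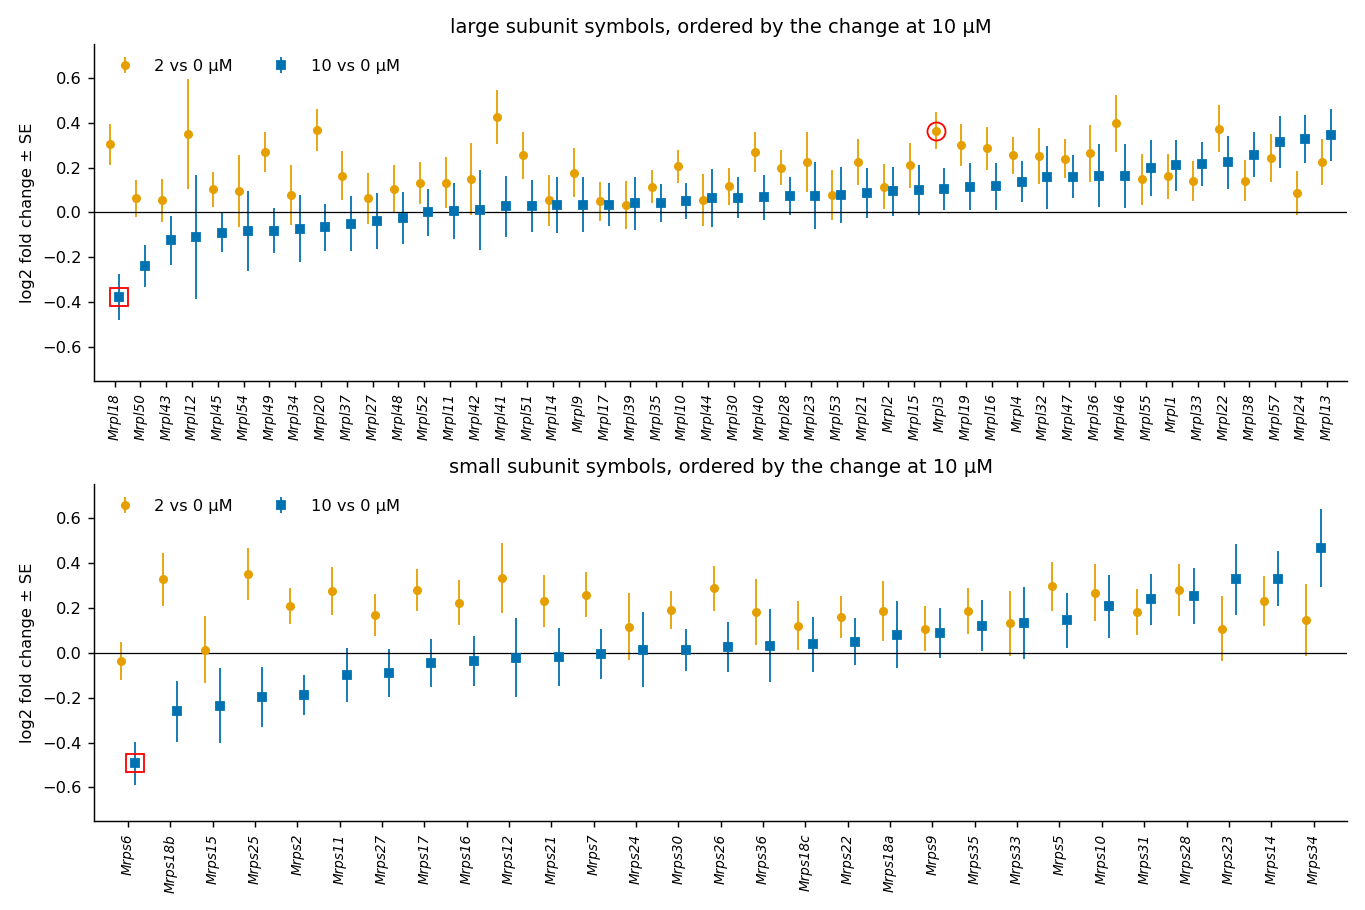
Log2 fold change ± SE of each member at 2 against 0 µM (circles) and 10 against 0 µM (squares), by subunit and ordered by the change at 10 µM. Red outlines mark an adjusted p under 0.05, which holds for Mrpl3 at 2 µM and for Mrpl18 and Mrps6 at 10 µM, and the 2 µM points lie above 0 in 76 of 77 members. Both comparisons share the untreated libraries.

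Between the doses, members were mostly lower at 10 than at 2 µM. The mean level was highest at 2 µM in 61 members, at 10 µM in 15 and at 0 µM in 1, which was Mrps6. The shares of all tested genes with these orders are not given here. The log2 fold change of 10 against 2 µM was below 0 in 62 of 77 members. It was above 0 in 19.5% of members, against 53.1% of all tested genes. Its median was -0.13 for the large and -0.15 for the small subunit, against 0.03 over all tested genes. The 82 tested cytosolic ribosomal protein genes were mostly lower too, with 67 below 0 and a median of -0.09. With total counts as the only scaling, which moved the median of all genes by 0.14, the large subunit median was 0.005. Without the second 10 µM library the medians were -0.21 and -0.30. One member was a DEG, Mrpl18, which fell, with a log2 fold change of -0.68 ± 0.104 (adjusted p = 0.00118), against 5.51% of tested genes. Tcp1, which overlaps Mrpl18 on the other strand, fell too, by -0.37 (adjusted p = 0.0113). At an adjusted p under 0.05, 10 members were lower (13%, background 11.9%) and 0 higher (background 11.5%), so the share lower was near that of all genes. At an unadjusted p under 0.05 there were 1 higher (background 18.2%) and 16 lower members (background 18.3%), the latter again near the share of all genes. DESeq2 called 0 higher (background 8.67%) and 11 lower (background 15.1%), with 3 DEGs (background 6.44%). Both 10 µM values lay below all 2 µM values in 30 members (39.0%, background 24.9%), and above them in 0 (background 27%). This comparison shares its 2 µM libraries with the one against 0 µM and is not independent of it.

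The 10 members that fell were 4 of the large subunit (Mrpl18, Mrpl20, Mrpl49, Mrpl50) and 6 of the small subunit (Mrps2, Mrps6, Mrps11, Mrps17, Mrps18b, Mrps25). Mrps18b, one of the proteins related to bacterial S18, stood at 22.4, 18.1 and 19.3 CPM at 0 µM, 29.3, 23.4 and 22 CPM at 2 µM, and 16.6 and 16.3 CPM at 10 µM, and fell, with a log2 fold change of -0.59 ± 0.137 (adjusted p = 0.0107). Mrps25 stood at 44.9, 35.8 and 34.9 CPM, 55.9, 47.6 and 43.2 CPM, and 33.8 and 32.8 CPM, and fell, with a log2 fold change of -0.55 ± 0.132 (adjusted p = 0.0127). In both the 10 µM values lay below all others. Mrps2, at 27.1, 26.1 and 27.2 CPM at 2 µM, fell, with a log2 fold change of -0.40 ± 0.09 (adjusted p = 0.00946). Mrps6 fell, with a log2 fold change of -0.45 ± 0.0959 (adjusted p = 0.00662), and Mrpl20 by -0.43 ± 0.106 (adjusted p = 0.0135) from its 2 µM level to 57.5 and 63.2 CPM. The rest fell too, with log2 fold changes of -0.38 (Mrps11), -0.35 (Mrpl49), -0.32 (Mrps17) and -0.30 (Mrpl50), with adjusted p between 0.0276 and 0.0469. Mrps2, Mrps18b, Mrps25 and Mrpl50 were not called without the second 10 µM library. The log2 fold changes were then -0.37 for Mrps2 and -0.615 for Mrps18b. Without the first 10 µM library Mrpl20, Mrpl49, Mrpl50, Mrps11 and Mrps17 were not called. Each of these fits had a single library at 10 µM. The count of 10 became 16 without the first 0 µM library (background 17.2%) and 6 without the first or the second 2 µM library, and Mrpl18 was not a DEG without the first 10 µM library.

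No member passed in the other direction in the main fit. With total-count scaling edgeR called Mrpl24 higher (0.378, adjusted p = 0.0265), and without the first 10 µM library its log2 fold change was 0.384. The 4 with the smallest p were Mrpl24 (0.24 ± 0.108, adjusted p = 0.128), Mrps34 (0.32 ± 0.175, adjusted p = 0.215), Mrps23 (0.22 ± 0.16, adjusted p = 0.355) and Mrpl38 (0.12 ± 0.1, adjusted p = 0.439). Mrps23, specific to mitochondria, stood at 29.4, 30.2 and 36.6 CPM at 2 µM and 30.5 and 44.5 CPM at 10 µM, and Mrpl38, of the central protuberance, at 38.4, 32.6 and 33.8 CPM and then 40.4 and 35.3 CPM. The doses overlapped in both, and 1 of the 10 µM libraries carried each difference.

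Members whose name and place in the complex differ had values like the rest. Mrps30, in the large subunit, had a log2 fold change of 0.19 ± 0.0848 at 2 against 0 µM (adjusted p = 0.224) and 0.01 ± 0.0947 at 10 against 0 µM (adjusted p = 0.945). Mrps18a, also in the large subunit, had 0.18 ± 0.134 and 0.08 ± 0.149, and Mrps18c, in the small subunit, 0.12 ± 0.11 and 0.04 ± 0.122. None of these passed the test. Mrps36, not a mitoribosomal protein, had 0.18 ± 0.147 and 0.03 ± 0.164. Mrps12, at the decoding centre, stood at 12.6, 9.22 and 8.53 CPM at 0 µM, 14.2, 11.8 and 11.2 CPM at 2 µM, and 8.73 and 10.6 CPM at 10 µM (0.33 ± 0.156 and -0.02 ± 0.177). Its doses overlapped at 2 against 0 µM and at 10 against 0 µM.

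The balance between the subunits hardly moved. The log2 ratio of summed counts of the 48 large to the 29 small subunit genes within a library, which needs no scaling between libraries, was 0.97, 0.98 and 0.97 in untreated cells, 0.97, 0.99 and 0.97 after 2 µM, and 1.03 and 1.01 after 10 µM. In the same order the means ± SD were 0.97 ± 0.00757, 0.98 ± 0.00833 and 1.02 ± 0.0198, that is ratios of 1.97, 1.97 and 2.03. The values at 0 and 2 µM overlapped, and both 10 µM values lay above all others by more than the spread at 0 and 2 µM, though by a small amount. With summed TPM the 10 µM values (mean 1.23, lowest 1.215) also lay above all others (highest 1.2). So they did with subunits assigned by structure (mean 0.78, lowest 0.777, highest of the others 0.769). In both the distance was smaller than the SD at 0 µM (0.0201 and 0.0193). With the median of log2 CPM in place of the sum, the 10 µM values overlapped with the rest (0.34 at 10 µM against 0.39 at 0 µM and 0.33 at 2 µM).

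The rRNAs of the mitochondrial ribosome moved far more than the mRNAs of its proteins. RNR1, the small subunit rRNA, had a mean of 27110 ± 6240 CPM in the untreated libraries, 11180 ± 3930 CPM after the low dose and 7108 ± 354 CPM after the high dose (± SD over 3, 3 and 2 libraries), and fell, with a log2 fold change of -1.28 ± 0.229 at 2 µM (adjusted p = 0.0149) and -1.93 ± 0.271 at 10 µM (adjusted p = 0.00102) against 0 µM. RNR2, the large subunit rRNA, was at 104200 ± 15900, 61210 ± 4450 and 42060 ± 5690 CPM, and fell, with a log2 fold change of -0.77 ± 0.149 (adjusted p = 0.0207) and -1.31 ± 0.173 (adjusted p = 0.000704). The log2 ratio of the summed counts of the 77 members to those of both rRNAs was -5.46, -5.59 and -5.53 in untreated cells, -4.47, -4.39 and -4.57 after 2 µM, and -4.28 and -3.87 after 10 µM. The 3 doses did not overlap. Nuclear rRNA was depleted from these libraries, and whether that step also drew on the mitochondrial rRNAs was not tested.

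Other genes of mitochondrial translation were examined as lists. Of 6 further mitoribosomal proteins without an Mrp number, Ptcd3, an RNA-binding protein of the small subunit, rose at 2 µM (0.31 ± 0.0615, adjusted p = 0.0221), with 135, 130 and 129 CPM at 0 µM and 166, 163 and 160 CPM at 2 µM, and fell again from 2 to 10 µM (-0.24 ± 0.0691, adjusted p = 0.0276). The groups at 0 and 2 µM were far apart for their spread, the first untreated library included. The others did not pass at either dose, Chchd1 with 0.26 (adjusted p = 0.148) at 2 µM, Aurkaip1 with 0.09 (adjusted p = 0.528) at 10 µM and Gadd45gip1 with -0.24 (adjusted p = 0.147) from 2 to 10 µM.

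Of 18 mitochondrial translation factors, 1 rose at 2 against 0 µM and 0 fell, 4 rose and 1 fell at 10 against 0 µM, and 1 rose and 3 fell at 10 against 2 µM. Of all tested genes, 1.51% rose and 2.65% fell in the first comparison, 6.81% and 7.11% in the second and 11.5% and 11.9% in the last, against 22.2% of the list rising in the second and 16.7% falling in the last. Tsfm, the exchange factor of the elongation factor Tufm, stood at 19.9, 17.6 and 17.6 CPM at 0 µM, 24.2, 23.7 and 23.1 CPM at 2 µM, and 18.9 and 19.1 CPM at 10 µM, and rose at 2 µM by 0.37 ± 0.0847 (adjusted p = 0.0373). Tufm itself stood at 60.3, 55.9 and 57.7 CPM at 0 µM and 46.9 and 46.0 CPM at 10 µM, and fell, with a log2 fold change of -0.32 ± 0.0799 (adjusted p = 0.0234). In both the 2 groups compared did not overlap. Guf1, a GTPase related to bacterial elongation factor LepA, rose at 10 µM by 0.46 ± 0.0804 (adjusted p = 0.00419), from 62.7, 55.5 and 56.0 CPM to 77.9 and 80.8 CPM. Lrpprc, which stabilizes mitochondrial mRNAs, rose by 0.29 ± 0.0693 (adjusted p = 0.0199), as did the initiation factor Mtif2 (0.30, adjusted p = 0.0324) and the recycling factor Gfm2 (0.28, adjusted p = 0.0424).

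Of 28 assembly and rRNA modification genes, 2 rose at 10 against 0 µM, 1 fell from 2 to 10 µM, and none passed at 2 against 0 µM. The 7.14% that rose and the 3.57% that fell were near and below the shares of all tested genes. Ngrn, needed for RNR2 stability, rose by 0.49 ± 0.0995 (adjusted p = 0.00804) and Gtpbp10, a GTPase of large subunit assembly, by 0.48 ± 0.125 (adjusted p = 0.0265). The rRNA methyltransferase gene Rnmtl1 fell from 2 to 10 µM by -0.56 (adjusted p = 0.0114), after 0.46 at 2 against 0 µM (adjusted p = 0.0507), and Wbscr16 had 0.26 at 2 µM (adjusted p = 0.145). The cytosolic ribosomal protein genes had medians of 0.13 at 2 µM and 0.04 at 10 µM against 0 µM, with 80 and 49 of 82 above 0. At 2 µM none of them passed, with 0.32 for Rpl7l1 (adjusted p = 0.0717), and at 10 µM Rpl22l1 was the only one (0.52 ± 0.0872, adjusted p = 0.00315).

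Many members start close to the start of a gene on the other strand. A protein-coding gene on the other strand started within 1000 bases of the start of 33 members, and 28 such neighbours that are not members were tested. Some of these pairs overlap at their starts, as Mrpl18 and Tcp1 do, and have no region between them. The share of all genes arranged in this way is not given here. At 2 against 0 µM the median log2 fold change was 0.22 in the 28 members beside them and 0.003 in the neighbours, of which 14 of 28 were above 0. At 10 against 0 µM the medians were 0.03 and 0.07, and at 10 against 2 µM -0.14 and 0.01. The neighbours as a group thus did not share the members' values. Single pairs differed from that: Ppp1r10, a phosphatase subunit gene 45 bases from Mrps18b, fell at 10 against 2 µM by -0.52 (adjusted p = 0.0058), beside -0.59 for Mrps18b, and at 10 against 0 µM by -0.59 (adjusted p = 0.00448), beside -0.26 for Mrps18b (adjusted p = 0.23). Tcp1, which starts 644 bases from the start of Mrpl18 and overlaps it, fell at 10 against 2 µM by -0.37 (adjusted p = 0.0113), beside -0.68 for Mrpl18. Mrpl46 and Mrps11 are a pair of members arranged in this way, with 0.40 and 0.27 at 2 against 0 µM and -0.23 and -0.38 at 10 against 2 µM. In all, 23 members overlapped a counted gene on the other strand and 5 on the same strand.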

How the data were processed

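The authors trimmed 75 bp paired reads of ribosomal RNA-depleted, strand-specific libraries with Trim Galore and cutadapt, aligned them to mm10 with STAR 2.5.2a and counted them per gene with featureCounts. They deposited whole-number counts without normalization. The annotation and strand setting of the counting are not given in the sources used here.

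The 77 members and the lists were chosen with earlier results of these data known. All 8 libraries entered a single quasi-likelihood fit of edgeR 4.0.16 under R 4.3.3, with a term for dose, TMM factors, the filterByExpr filter and Benjamini-Hochberg adjustment over 14296 genes. Genes past 1.5-fold at an adjusted p under 0.01, the study's limits, were DEGs, and an adjusted p under 0.05 was the other threshold. The SE was the size of the log2 fold change over the square root of F. TPM used merged GENCODE exon lengths, found for 24054 of 24421 nuclear genes (98.5%), over nuclear genes only. Promoter windows and letters came from RefSeq.

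Named members were those called a DEG, the 4 with the smallest p in each direction and comparison, the 3 highest and 2 lowest TPM per subunit, and those singled out by their place in the complex; other called members were added after their values were seen. Mrpl47 was moved to the genes with a bacterial counterpart after the list was written. The most alike libraries of a dose still differed by more than sampling noise (chi-square 3.23 per degree of freedom), and each entered the fit as its own replicate. That difference does not show whether they came from separate cultures. The procedure was tested on simulated counts. The alternatives were RLE, nuclear-only TMM and total-count scaling, other filters, DESeq2 1.42.0, a fit of 2 doses at a time, a replicate block, each library left out, and other summaries of the subunits.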

Additional observations from a re-analysis of the deposited data

How the results depend on the processing

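Precision was limited by 2 libraries at 10 µM and by the first 0 µM library. Total-count scaling moved the median of all genes by 0.08, 0.21 and 0.14 (log2) at 2 against 0, 10 against 0 and 10 against 2 µM. With it, 20 members were called at 2 against 0 µM and 28 at 10 against 0 µM (27 higher). The shares of all tested genes called with this scaling are not given here, so these counts are not a result about the members. The DEG at 10 against 2 µM was lost (0). The medians at 10 against 0 µM became 0.28 (large) and 0.24 (small), against 0.23 over all tested genes. The large subunit median at 10 against 2 µM became 0.005, against 0.16 over all tested genes. RLE factors, nuclear-only TMM, no filter, at least 10 counts in every library and DESeq2 each called 2 members, Mrpl3 and Mrpl20, in place of 1 at 2 against 0 µM. A fit of only the 2 groups called 1 in place of 2 at 10 against 0 µM. No filter, DESeq2 and the replicate block each gave 3 DEGs at 10 against 2 µM, Mrpl18, Mrps18b and Mrps25.

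Leaving out each library in turn gave 0 to 31 called members at 2 against 0 µM, 1 to 8 at 10 against 0 µM and 6 to 16 at 10 against 2 µM, and 0 to 3 DEGs at 10 against 2 µM. The extremes of 31, 8 and 16 were without the first 0 µM library. The large and small subunit medians ran from 0.135 to 0.269 and 0.125 to 0.295 at 2 against 0 µM, from -0.02 to 0.117 and -0.102 to 0.141 at 10 against 0 µM, and from -0.212 to -0.105 and -0.298 to -0.112 at 10 against 2 µM. Without the first 0 µM library 65 members did not overlap at 2 against 0 µM.

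Of 336 values for named members under alternatives, 296 kept their direction and call, 12 lost a call, 21 gained one and 7 changed sign. Where a member was not called in the main fit, keeping its call means that it stayed uncalled. The lost calls were those of Mrpl3 at 2 against 0 µM, Mrpl18 at 10 against 0 µM, and Mrps2 and Mrps18b at 10 against 2 µM. No change of sign was in a comparison in which that member was called in the main fit. Mrps6 at 2 against 0 µM became 0.042 and Mrps2 at 10 against 0 µM 0.027 with total counts. Leaving out each library in turn, Mrps6 at 2 against 0 µM ran from -0.1 to 0.021 (above 0 without the third 0 µM or the second 2 µM library). At 10 against 2 µM, Mrpl24 ran from -0.001 to 0.384 and Mrps23 from -0.113 to 0.43 (below 0 without the second 10 µM library), and Mrpl38 from -0.026 to 0.183 (below 0 without the first). For the large to small ratio at 0, 2 and 10 µM, summed TPM gave 1.17, 1.19 and 1.23, the median of log2 CPM 0.39, 0.33 and 0.34, and subunits by structure 0.75, 0.74 and 0.78. Same-numbered libraries at 0 and 2 µM had correlations of deviations over all genes of 0.20, 0.08 and 0.16. Differently numbered ones ran lower, from -0.154 to 0.0584. Same-numbered correlations with 10 µM were negative. With 2 libraries at 10 µM, the deviations of one mirror those of the other, so these signs say little. Whether the numbers pair the libraries was thus not settled, and the main fit did not pair them. With the replicate block 1, 2 and 10 members were called in the 3 comparisons. Except where values are given, the cause of these differences was not tested.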
